A study of Mus musculus with 8 samples.

Results

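The genes described here are the matrix metalloproteinases (MMPs), the proteases of the ADAMTS family with their non-catalytic ADAMTS-like relatives, and the tissue inhibitors of metalloproteinases (TIMPs). They were taken from the annotation of the array by symbol: Mmp or Adamts followed by a number, Adamtsl, or Timp followed by a single digit. The rule found 42 of 18193 named genes, with 78 of 34945 named probe sets: 18 Mmp, 4 Timp, 15 Adamts and 5 Adamtsl genes. RNA came from epididymal white adipose tissue, an intra-abdominal fat depot attached to the epididymis, of male littermate mice of the C57BL/6 background aged 12 weeks and fed standard chow. The LPA4-KO group held 4 mice with a deficient Lpar4 gene on their X chromosome (Lpar4 -/Y), and the wild-type (WT) group held 4 mice. Lpar4 encodes LPA4, a receptor for lysophosphatidic acid, and the labels name neither a cell type restriction of the deficiency nor the deleted part of the gene. The comparison was between these genotypes, with each array labelled as a separate biological replicate.

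MMPs are zinc-dependent proteases that are made as inactive precursors and, once activated, cut collagens, laminins, fibronectin and other proteins around cells. TIMPs bind the active site of these enzymes and block them, and TIMP-2 also takes part in the activation of the gelatinase MMP-2 at the cell surface by MMP-14. ADAMTS proteases carry thrombospondin repeats and cut proteoglycans such as versican, or trim procollagens, while ADAMTS-like proteins share the repeats and lack the protease domain. In fat, these enzymes take part in the remodelling of the matrix around adipocytes and their precursors as a depot grows.

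Each probe set had 1 log2 value in each array, and the values of different probe sets are not comparable amounts of RNA. Most probe sets in this table were nearly constant. A probe set is called varying here when its highest and lowest array differed by over 0.1 log2, which held for 19.1% of the named probe sets. Each gene was read at the probe set whose mean over the arrays was highest, and 4029 genes (22.1%) varied there. Among the protease and inhibitor genes 18 of 42 varied. No gene of the family lay near the limit: the smallest range among varying probe sets was 0.46 log2 (Timp1) and the largest among the others 0.0020 log2 (Mmp10). A nearly constant value is therefore given here as no measurement, not as equality, and it occurred at strong signals too: Adipoq, the adiponectin gene and a defining marker of adipocytes, was nearly constant at a mean of 13.83. Array medians lay between 6.50 and 6.51. The interquartile range of all values in an array ran from 1.387 to 1.394 in LPA4-KO and from 1.404 to 1.431 in WT, without overlap. At 1 of its 3 probe sets Lpar4 was lower in all LPA4-KO arrays (5.80 ± 0.05 against 6.52 ± 0.03, SD, n = 4; limma adjusted p = 0.0033), while the other 2 overlapped between groups with positive differences. The 3′ to 5′ difference of the Actb control ran from 1.21 to 1.33 log2 in LPA4-KO and from 1.14 to 1.22 in WT arrays, and that of Gapdh from 0.56 to 0.60 and from 0.57 to 0.63. Of 12 measured adipocyte markers 9 varied. All 13 measured markers of epididymis and testis were nearly constant.

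**Figure D1:**
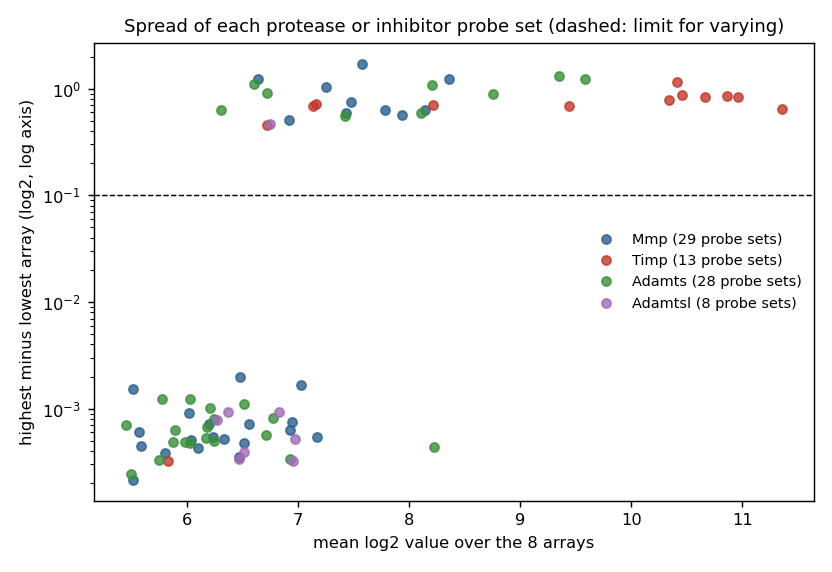
Range over the 8 arrays (highest minus lowest, log2, on a log axis) of each of the 78 protease and inhibitor probe sets against its mean log2 value, coloured by family. The 32 varying probe sets lie above the dashed limit of 0.1 and the 46 others lie below 0.0020, with none in between.

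Upstream sequence is shown for Timp2, which alone among the TIMPs had groups that did not overlap, beside Timp3 and Timp4, and for Mmp7 and Mmp12, the only varying members of the MMP gene cluster. Each is the 250 bases before an annotated start, 5′ to 3′, from RefSeq (GRCm38.p6). Capitals mark matches to any of 3 motifs on either strand. The first is GGGCGG, a GC box. The second is TGANTCA, the core bound by AP-1 factors. The third is TATAAA, a core promoter element bound by the general factor TBP (the TATA box).
Timp2, chr11:118355412-118355661, minus strand: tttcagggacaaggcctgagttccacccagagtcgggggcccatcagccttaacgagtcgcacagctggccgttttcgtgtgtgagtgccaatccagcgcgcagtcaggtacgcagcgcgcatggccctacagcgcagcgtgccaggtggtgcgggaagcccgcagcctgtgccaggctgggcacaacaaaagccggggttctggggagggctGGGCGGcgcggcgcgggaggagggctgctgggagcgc
Timp3, chr10:86300162-86300411, plus strand: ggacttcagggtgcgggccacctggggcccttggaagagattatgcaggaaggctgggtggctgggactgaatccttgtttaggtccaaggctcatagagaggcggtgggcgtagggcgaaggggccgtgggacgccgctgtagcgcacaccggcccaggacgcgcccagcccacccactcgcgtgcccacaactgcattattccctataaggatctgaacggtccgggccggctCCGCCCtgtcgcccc
Timp4, chr6:115252206-115252455, minus strand: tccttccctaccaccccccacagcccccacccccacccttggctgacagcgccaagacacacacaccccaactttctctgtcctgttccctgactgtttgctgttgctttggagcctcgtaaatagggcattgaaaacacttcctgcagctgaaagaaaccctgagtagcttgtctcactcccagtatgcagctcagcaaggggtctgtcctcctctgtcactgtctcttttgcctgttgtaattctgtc
Mmp7, chr9:7691840-7692089, plus strand: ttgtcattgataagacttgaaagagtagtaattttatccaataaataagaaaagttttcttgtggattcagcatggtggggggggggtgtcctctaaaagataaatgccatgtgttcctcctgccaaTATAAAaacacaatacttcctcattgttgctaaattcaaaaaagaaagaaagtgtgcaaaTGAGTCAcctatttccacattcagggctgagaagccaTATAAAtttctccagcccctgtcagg
Mmp12, chr9:7347124-7347373, plus strand: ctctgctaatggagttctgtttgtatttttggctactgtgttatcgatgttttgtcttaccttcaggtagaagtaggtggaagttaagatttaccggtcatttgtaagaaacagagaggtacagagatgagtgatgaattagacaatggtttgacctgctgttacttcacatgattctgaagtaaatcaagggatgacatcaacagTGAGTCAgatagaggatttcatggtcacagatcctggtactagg

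Of the 42 genes, 27 had such a window (30 windows in all), 11 of them varying genes. Timp2 held 1 GC box that began 37 bases before the start and Timp3 held 1 that began 15 bases before it, while the Timp4 window held none of these motifs. The Timp1 window, which is not printed, also held GGGCGG. This motif was in 50% of the windows of the family and in 32.7% of all 32851 windows. In the windows shown Mmp7 held 2 TATA boxes and 1 TGANTCA, and Mmp12 held 1 TGANTCA. Both genes have another listed start, whose window held no TGANTCA, and the window with TGANTCA was the one chosen to be shown. The latter motif was in 8 of the 30 windows (26.7%) and in 6.75% of all windows. The 8 genes were Mmp13, Mmp12, Mmp1b, Mmp3, Mmp1a, Mmp10, Mmp20 and Mmp7. These are 8 of the 9 members, with Mmp8, that stand in 1 run of neighbouring genes in the RefSeq table. TATA boxes were in 9 of the 30 windows (30.0%) and in 12.4% of all windows. Another motif searched, GGAATG, the core bound by TEAD factors, was in 1 of the 30, that of Timp1 (3.33%), and in 12.6% of all. In the windows shown no matches overlapped. In the run of neighbouring genes 7 of the 9 genes were nearly constant, and Mmp7 and Mmp12 had positive differences that did not pass the test.

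No member passed the test over all genes. When varying genes were tested alone, Adamts5 and Timp2 were lower and Mmp19 was higher in LPA4-KO fat. Only the Adamts5 call held with each single array left out. The range that marks a gene as varying spans the arrays of both genotypes, so it includes the difference under test. This choice of genes is therefore not blind to genotype, which limits the adjusted p-values in the varying genes. Over all 18193 genes limma called 239 (1.31%, with 0.863% higher and 0.451% lower) at an adjusted p under 0.05 and 0 of the 42 genes. Of the 239 genes 190 were varying, and the others were nearly constant, which is no measurement here. At an unadjusted p under 0.05 stood 10 of the 42 (17.6% of all genes), 4 of them nearly constant. The same held for 6 of the 18 varying members (39.8% of varying genes). When the 4029 varying genes were fitted alone, 3 of the 18 varying members were called, Adamts5 and Timp2 lower and Mmp19 higher, where 21.3% of varying genes were called (11.5% lower, 9.78% higher). The groups did not overlap in 5 of the 18, lower for Adamts5, Timp2, Adamts6 and Mmp23 and higher for Mmp19, against 28.9% of all varying genes (14.5% lower, 14.4% higher). Both shares of members were close to or under those of all varying genes. Among the 18, 10 differences were negative and 8 positive, where 53.4% of varying genes were negative and 46.6% positive. The median difference was -0.11 log2, and -0.03 over all varying genes. Of the 32 varying probe sets of the family 11 did not overlap between groups, 9 lower and 2 higher. Of the 9, 5 were of Timp2 and 2 of Adamts5, repeat readings of the same genes. Over all 6682 varying probe sets 1887 (28.2%) did not overlap, 1027 lower and 860 higher.

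**Figure D2:**
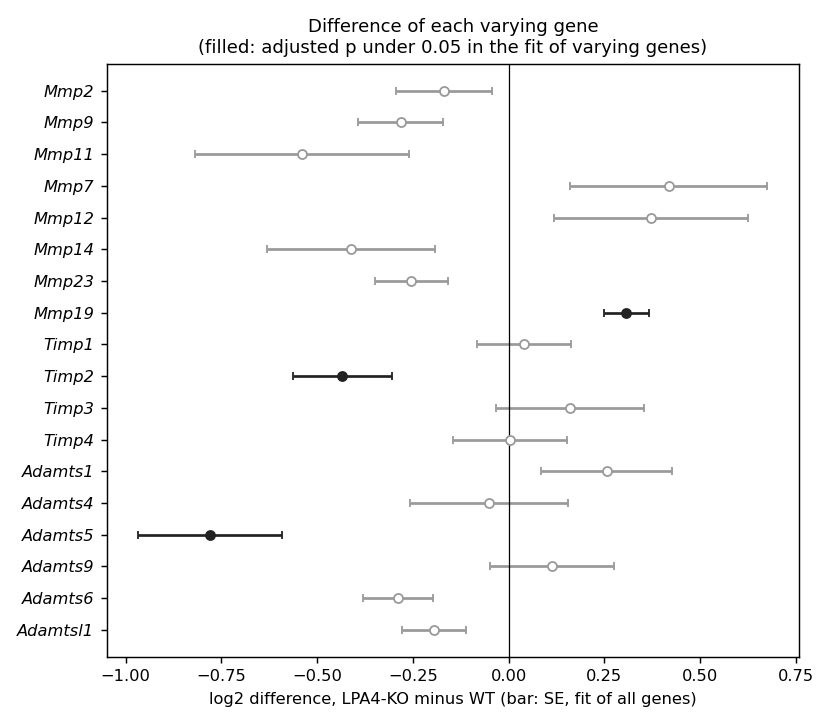
Log2 difference (LPA4-KO minus WT) of each of the 18 varying genes, ordered by role, with bars of 1 SE from the fit of all genes. Filled points mark Adamts5, Timp2 and Mmp19, the 3 genes with an adjusted p under 0.05 when varying genes were fitted alone.

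ADAMTS-5 is the main aggrecanase of mouse cartilage and also cuts versican in soft tissue. At its probe set with the highest mean, Adamts5 stood at 9.53, 9.95, 10.32 and 10.10 in WT replicates 1 to 4 and at 9.11, 9.49, 9.09 and 9.10 in LPA4-KO replicates 1 to 4. All LPA4-KO arrays were below all WT arrays, with LPA4-KO replicate 2 just under WT replicate 1. The difference was -0.78 ± 0.19 (SE), a 1.72-fold lower level (limma adjusted p = 0.10 over all genes, 0.015 in the varying genes). Its size was above that of 98.7% of varying genes. Both other varying probe sets of the gene differed by -0.69 ± 0.13 (1450658_at, groups apart) and -0.67 ± 0.21 (1456404_at, where LPA4-KO replicate 2 at 9.38 lay above WT replicate 1 at 9.30). Probe sets of 1 gene read the same RNA, so they are not separate replicates. The fourth probe set of Adamts5 was nearly constant. The call within the varying genes held with each array left out in turn (adjusted p at most 0.043).

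The other varying proteoglycan-cutting ADAMTS genes did not pass the test. Adamts1, which encodes another versican-cutting enzyme and is the neighbour of Adamts5 in the genome, had means of 8.88 ± 0.26 in LPA4-KO and 8.63 ± 0.24 in WT (SD, n = 4), a difference of 0.26 ± 0.17 (adjusted p = 0.50) with overlapping groups. Adamts9, whose product also cuts versican, differed by 0.11 ± 0.16 at its probe set with the highest mean (between 0.0234 without WT replicate 2 and 0.21 without WT replicate 4) and by 0.28 ± 0.08 at 1430352_at, where LPA4-KO arrays (7.46 to 7.65) lay above WT arrays (7.09 to 7.43). That probe set had an adjusted p of 0.18 over all named probe sets and 0.060 in the varying ones. A further Adamts9 probe set, 1431399_at, was nearly constant. Adamts4, the other classical aggrecanase, differed by -0.05 ± 0.21 and -0.09 ± 0.25 at its 2 probe sets, where WT replicate 2 was highest (7.27 and 7.28). Whether Adamts5 differs from these genes in its response was not tested. Adamts8, Adamts15 and Adamts20 were nearly constant.

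Among the remaining ADAMTS genes 1 varied. Adamts6, a relative of Adamts10 with a role in microfibril assembly, stood at 6.45, 6.68, 6.34 and 6.33 in WT and at 6.17, 6.05, 6.28 and 6.15 in LPA4-KO replicates 1 to 4. The groups did not overlap, by a narrow gap between LPA4-KO replicate 3 and WT replicate 4 (difference -0.29 ± 0.09, adjusted p = 0.18 over all genes, 0.092 in the varying genes). Its other probe set, 1457548_at, was nearly constant. Adamts3, of the enzymes that remove the N-terminal propeptide of procollagens, was nearly constant, as were Adamts7, Adamts10, Adamts12, Adamts16, Adamts18 and Adamts19. Among the ADAMTS-like genes Adamtsl1 varied, with means of 6.65 ± 0.15 and 6.85 ± 0.09 in LPA4-KO and WT and overlapping groups (-0.19 ± 0.08, adjusted p = 0.30). Its other probe sets, 1430313_at and 1437429_at, were nearly constant, as were Adamtsl2, Adamtsl3, Adamtsl4 and Adamtsl5. Adamts2, Adamts13, Adamts14 and Adamts17 were not analysed here.

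**Figure D3:**
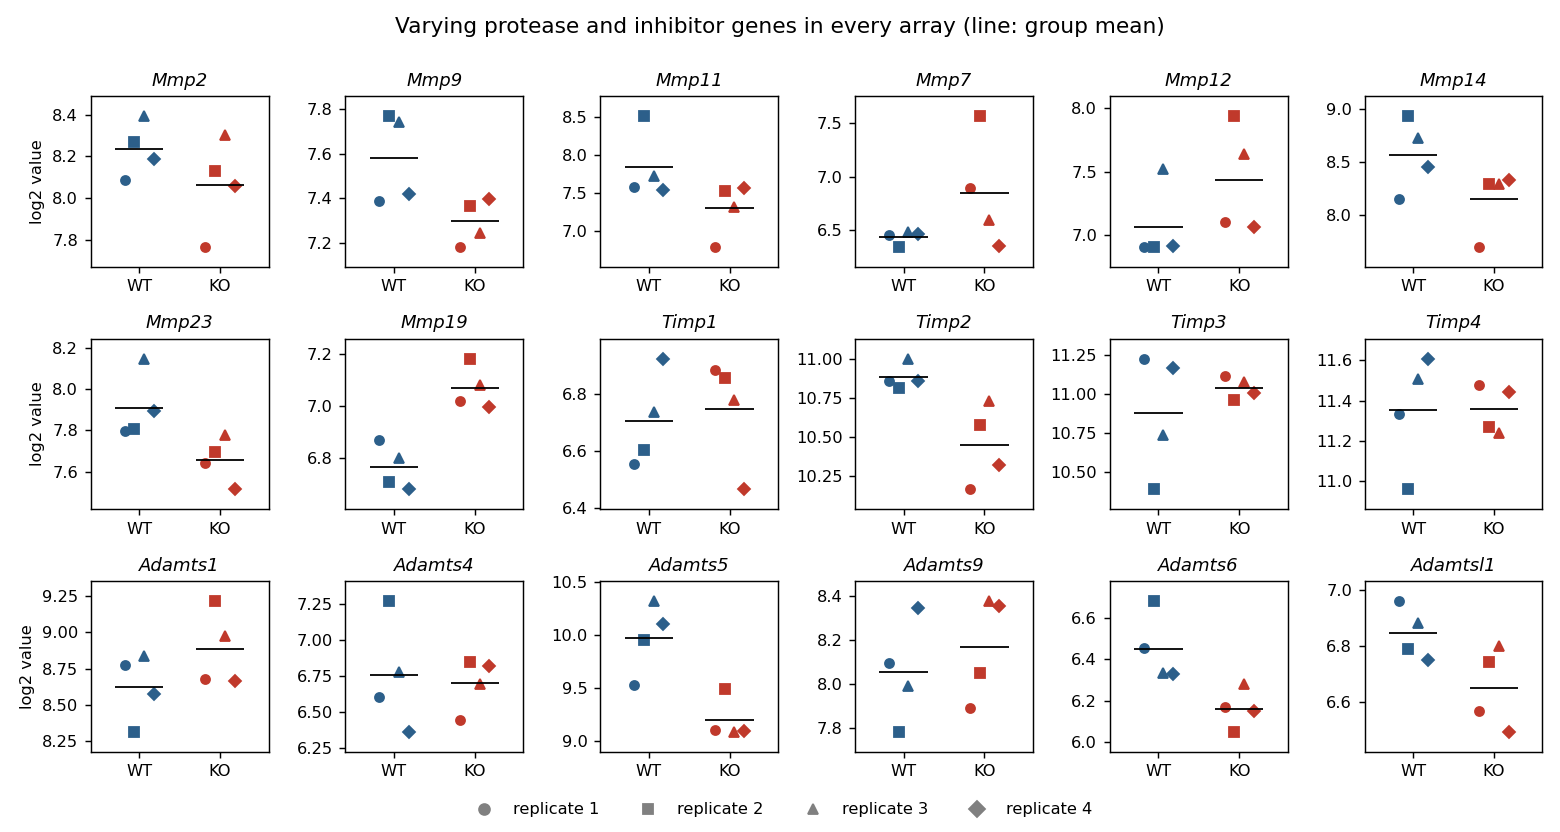
Log2 value of the 18 varying genes in each of the 4 WT and 4 LPA4-KO (KO) arrays, at the probe set with the highest mean, with 1 marker shape per replicate number and a line at the group mean. The groups are apart for Adamts5, Timp2, Mmp23, Adamts6 and Mmp19, and WT replicate 2 is the lowest array for Timp3 and Timp4.

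The TIMPs were all varying, and Timp2 alone was apart between the groups. Timp2 stood at 10.86, 10.82, 11.00 and 10.86 in WT and at 10.17, 10.58, 10.73 and 10.33 in LPA4-KO replicates 1 to 4. The WT arrays lay close together and the LPA4-KO arrays were spread below them, replicates 1 and 4 the lowest. The difference was -0.43 ± 0.13, a 1.35-fold lower level (adjusted p = 0.16 over all genes, 0.032 in the varying genes). All 5 varying probe sets of Timp2 gave differences between -0.45 and -0.33 with groups apart, although their mean signals ran from 7.14 to 10.67. Of these 5, 4 were called lower when the 6682 varying probe sets were fitted alone (18.8% of which were called, 10.5% lower and 8.35% higher), and 1420924_at was not (adjusted p = 0.054). The sixth probe set, 1437081_at, was nearly constant. In the varying genes the call of Timp2 was lost when LPA4-KO replicate 1 or 4, or WT replicate 3 or 4, was left out (adjusted p at most 0.080).

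Timp3, whose product binds to the matrix itself and also inhibits ADAMTS enzymes, stood at 11.23, 10.39, 10.74 and 11.16 in WT and at 11.11, 10.96, 11.08 and 11.01 in LPA4-KO replicates 1 to 4. The LPA4-KO arrays fell within the WT range, and WT replicate 2 was lowest at all 4 probe sets of the gene. The difference was 0.16 ± 0.19 (adjusted p = 0.74), and -0.0032 without WT replicate 2. Timp4, a TIMP known to be abundant in fat and heart, stood at 11.34, 10.96, 11.51 and 11.61 in WT and at 11.48, 11.27, 11.24 and 11.44 in LPA4-KO replicates 1 to 4. WT replicate 2 was again the lowest array, and the difference was 0.0037 ± 0.15 (adjusted p = 0.995), or -0.14 ± 0.24 at 1450974_at. Timp1, the TIMP most readily induced in inflamed tissue, stood at 6.56, 6.60, 6.74 and 6.92 in WT and at 6.88, 6.86, 6.78 and 6.47 in LPA4-KO replicates 1 to 4. Its groups overlapped over nearly their whole range (0.04 ± 0.12, adjusted p = 0.91). With 4 arrays a group, these intervals do not show that Timp1, Timp3 and Timp4 were alike in both genotypes.

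**Figure D4:**
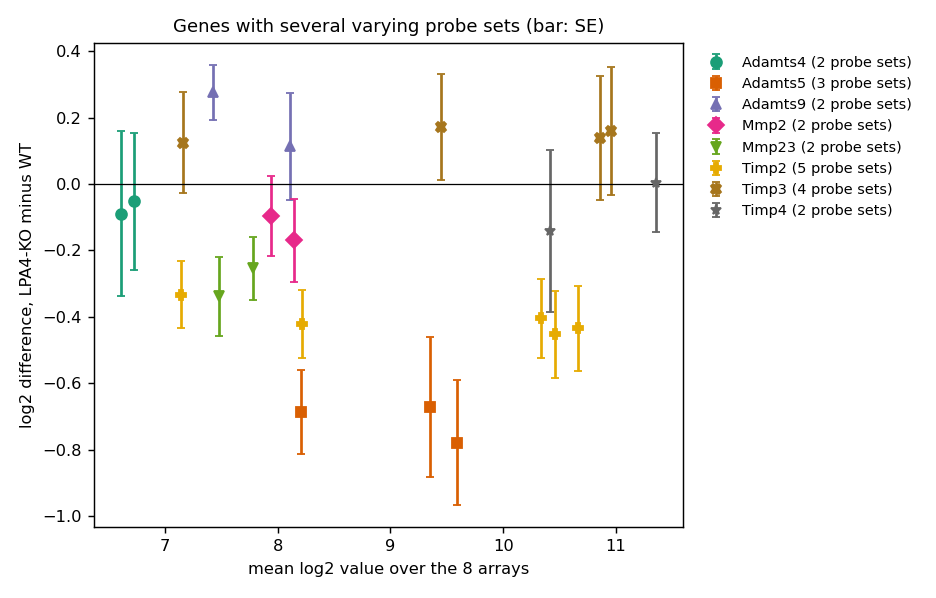
Log2 difference (LPA4-KO minus WT) against mean log2 value for the genes with more than 1 varying probe set, with bars of 1 SE. All 5 Timp2 and all 3 Adamts5 probe sets lie below 0, and the 4 Timp3 probe sets lie above 0 with bars of a size like their distance from it.

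MMP-19, a secreted MMP that cuts basement membrane proteins, was the only called member with a higher level. Mmp19 stood at 6.87, 6.71, 6.80 and 6.68 in WT and at 7.02, 7.18, 7.08 and 6.997 in LPA4-KO replicates 1 to 4. All LPA4-KO arrays lay above all WT arrays, and both groups were tight. The difference was 0.31 ± 0.06, a 1.24-fold higher level (adjusted p = 0.067 over all genes, 0.033 in the varying genes). Within the varying genes the call held without WT replicate 1 and was lost without any other single array (adjusted p at most 0.083). The second probe set, 1421976_at, was nearly constant and passed the test over all 34945 named probe sets (adjusted p = 0.036; 0.933% of probe sets called, 0.612% higher and 0.321% lower) with a difference of 0.00036 log2. It was the only one of the 78 probe sets that passed there, and a difference of that size is not interpretable as a change in RNA. Mmp20, the enamel protease, was nearly constant.

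The membrane-anchored MMPs Mmp14 and Mmp23 had negative differences. Mmp14, which cuts collagen at the cell surface and activates MMP-2, stood at 8.15, 8.93, 8.72 and 8.45 in WT and at 7.70, 8.29, 8.29 and 8.33 in LPA4-KO replicates 1 to 4. LPA4-KO replicate 1 was lowest by a wide gap, and WT replicate 1 lay below the other 3 LPA4-KO arrays. The difference was -0.41 ± 0.22 (adjusted p = 0.39 over all genes, 0.13 in the varying genes). Its other probe sets, 1416572_at and 1440920_at, were nearly constant. Mmp23, which lacks the usual activation switch of MMPs, had means of 7.66 ± 0.11 in LPA4-KO and 7.91 ± 0.16 in WT (-0.25 ± 0.10, adjusted p = 0.24), with the groups apart by a narrow gap. Its second probe set differed by -0.34 ± 0.12 with overlapping groups. Mmp16, Mmp17 and Mmp24 were nearly constant.

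Both gelatinases, which cut denatured collagen and type IV collagen, had small negative differences. Mmp2 had means of 8.06 ± 0.22 in LPA4-KO and 8.23 ± 0.13 in WT mice (-0.17 ± 0.13, adjusted p = 0.55, and -0.07 without LPA4-KO replicate 1), and -0.10 ± 0.12 at its other probe set. Mmp9 differed by -0.28 ± 0.11 (7.30 ± 0.10 against 7.58 ± 0.20, adjusted p = 0.26), and the groups overlapped at LPA4-KO replicate 4 and WT replicate 1. Its other probe set, 1448291_at, was nearly constant. Neutrophils are a known source of MMP-9. Of 10 measured neutrophil markers 3 varied, with means of 6.61 to 6.91 in LPA4-KO and 6.65 to 6.83 in WT arrays, and their part in the Mmp9 values was not tested.

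Of the stromelysins, Mmp11 varied and Mmp3 and Mmp10 were nearly constant. Mmp11, an MMP expressed in the stroma of remodelling tissue and known as a regulator of adipogenesis, stood at 7.58, 8.51, 7.73 and 7.55 in WT and at 6.79, 7.53, 7.32 and 7.57 in LPA4-KO replicates 1 to 4. The groups overlapped at LPA4-KO replicate 4 and WT replicate 4, and the means were drawn apart by the highest WT and the lowest LPA4-KO array. Its difference of -0.54 ± 0.28 was the second largest of the family and did not pass (adjusted p = 0.38 over all genes, 0.12 in the varying genes). The collagenase genes Mmp1a, Mmp1b, Mmp8 and Mmp13 were all nearly constant.

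Mmp7 and Mmp12 had positive differences with a wide spread between arrays, and neither passed. Mmp7, matrilysin, an MMP of epithelia, stood at 6.45, 6.34, 6.48 and 6.46 in WT and at 6.89, 7.57, 6.59 and 6.35 in LPA4-KO replicates 1 to 4. The WT arrays were nearly equal, LPA4-KO replicate 2 was far above them and replicate 4 among them (0.42 ± 0.26, adjusted p = 0.46, and 0.18 without LPA4-KO replicate 2). All 13 measured epididymis and testis markers, Lcn5 and Lcn8 among them, were nearly constant over the 8 arrays, which is no measurement here. The part of epididymal tissue in the Mmp7 values was not tested. Mmp12, the macrophage elastase, stood at 6.91, 6.91, 7.52 and 6.92 in WT and at 7.11, 7.94, 7.64 and 7.07 in LPA4-KO replicates 1 to 4. WT replicate 3 lay above LPA4-KO replicates 1 and 4, so the groups overlapped (0.37 ± 0.25, adjusted p = 0.51, between 0.21 and 0.53 with single arrays left out). The macrophage marker list had the opposite sign, with 13 of 14 varying markers negative (53.4% of all varying genes). Its median was -0.21, against -0.03 over all varying genes. In the varying genes 3 of the 14 were called lower (Lyz2, Mpeg1 and Cd9), where 11.5% of all varying genes were. With single arrays left out, Lyz2 and Mpeg1 kept their calls in 8 of 8 fits and Cd9 in 2. The list means ran from 9.40 to 9.60 in LPA4-KO and from 9.52 to 9.82 in WT arrays. The part of macrophage number in the Mmp12 values was not tested.

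Across the family the arrays did not hold a common order. LPA4-KO replicate 1 was the lowest array for 5 of the 18 varying genes and the highest for 0. WT replicate 2 was the highest array for 5 and the lowest for 5, and WT replicate 3 the highest for 4 and the lowest for 0.

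Among genes that act with these proteases most varying members had negative differences. In each list the median over varying members stands against -0.03 over all varying genes, of which 53.4% were negative and 11.5% were called lower. Of 11 genes of procollagen and proprotein processing 5 varied, all negative (median -0.36), none passed over all genes and 3 were called lower in the varying genes. These were Pcsk6 (-0.47 ± 0.08), a proprotein convertase, Pcolce2 (-0.74 ± 0.15), an enhancer of procollagen C-proteinase, and Bmp1 (-0.36 ± 0.08), that proteinase. Of 8 plasminogen system genes 2 varied (median -0.41). Plat, the tissue plasminogen activator, was called lower in the varying genes (-0.52 ± 0.11), and Plau, the urokinase gene, differed by -0.30 ± 0.13. Of 14 other inhibitors and cofactors 7 varied, 6 of them negative (median -0.20). Reck, a membrane-anchored MMP inhibitor (-0.31 ± 0.06), and Cst3, the cathepsin inhibitor cystatin C (-0.29 ± 0.09), were called lower in the varying genes only. With single arrays left out, Pcsk6, Pcolce2 and Plat kept their calls in the varying genes in 8 of 8 fits, Reck in 6, Bmp1 in 5 and Cst3 in 2. Lrp1, an uptake receptor for protease and inhibitor complexes, differed by -0.13 ± 0.09, and Pcsk5, another convertase, by -0.18 ± 0.09.

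Of the 14 genes of cathepsins, the lysosomal proteases, 2 fell in the fit of all genes, where 0.451% of genes were called lower: Ctsf (-0.25 ± 0.03, adjusted p = 0.036) and Ctsl (-0.38 ± 0.05, adjusted p = 0.037). Of the 14 genes 10 varied and 9 of these were negative (median -0.14), where 53.4% of all varying genes were, with Ctsb at -0.11 ± 0.10. In the varying genes the same 2 of these 10, Ctsf and Ctsl, were called lower, where 11.5% of all varying genes were. Of 11 membrane ADAM genes 2 varied and none was called, Adam12 at 0.15 ± 0.05 and Adam10 at -0.11 ± 0.04. Among substrates of the ADAMTS family and related matrix proteins 7 of 12 varied, all negative (median -0.31). Fbln2, the fibulin-2 gene, fell over all genes (-0.69 ± 0.11, adjusted p = 0.0498), and Efemp1 (-0.77 ± 0.12) and Nid1 (-0.31 ± 0.08) were called lower in the varying genes. Vcan, the versican gene and a substrate of ADAMTS-5, differed by -0.31 ± 0.15 (adjusted p = 0.36). The calls over all genes were lost with any single array left out for Ctsl and Fbln2 and held in 1 of 8 such fits for Ctsf. In the varying genes Ctsl, Fbln2 and Efemp1 were called in all 8, Ctsf in 5 and Nid1 in 3.

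Adamts5, Timp2 and Mmp14, of which Mmp14 was not called, had negative differences and are known to be expressed by fibroblasts and adipocyte progenitors. The family itself was split, with 10 of its 18 varying genes negative and 8 positive. The varying markers of fibroblasts and adipocyte progenitors had negative differences. All 16 varying markers of 18 measured were negative (median -0.36), where 53.4% of all varying genes were. Dpt, dermatopontin, fell over all genes (-0.43 ± 0.04, adjusted p = 0.023, held in 3 of 8 fits with an array left out). In the varying genes 8 of the 16 fell, where 11.5% of all varying genes were called lower, among them Pdgfra, the defining receptor of these cells (-0.66 ± 0.16). The mean of the varying markers ran from 8.86 to 9.18 in LPA4-KO and from 9.39 to 9.70 in WT arrays without overlap, and their part in the differences of Adamts5, Timp2 and Mmp14 was not tested. In a whole fat pad, fewer cells of a type and less RNA per cell cannot be told apart. The mesothelial list, for the lining cells on the surface of the depot, had 13 of 13 varying markers negative and 4 called lower in the varying genes. These stand against the same 53.4% and 11.5% (means 7.38 to 7.87 in LPA4-KO, 7.70 to 8.52 in WT). With single arrays left out, Gpm6a kept its call in 6 of 8 fits, Rspo1 in 4, and Upk3b and Lrrn4 in 1 each. Endothelial markers had 5 of 6 negative, against the same 53.4% (means 8.27 to 8.55 in LPA4-KO, 8.54 to 8.75 in WT). Smooth muscle and pericyte markers were split, 6 positive and 3 negative (8.42 to 8.67 against 8.46 to 8.91). Of these, Acta2 (-1.31 ± 0.21) and Synpo2 (-1.30 ± 0.19) fell over all genes, where 0.451% of genes were called lower. Both calls were lost with any single array left out and kept in all 8 such fits of the varying genes, where 11.5% were called lower. The contractile genes Tagln (0.08 ± 0.12), Myh11 (0.20 ± 0.10), Myl9 (0.28 ± 0.21) and Mylk (0.11 ± 0.10) had positive differences and were not called. Adipocyte markers had 7 of 9 positive, where 46.6% of all varying genes were (means 11.22 to 11.34 in LPA4-KO, 10.99 to 11.31 in WT). All 4 varying mast cell markers and all 3 varying lymphocyte markers were negative, against the same 53.4%. Their list means overlapped (6.45 to 6.97 against 6.72 to 7.08, and 6.93 to 7.39 against 7.17 to 7.83).

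**Figure D5:**
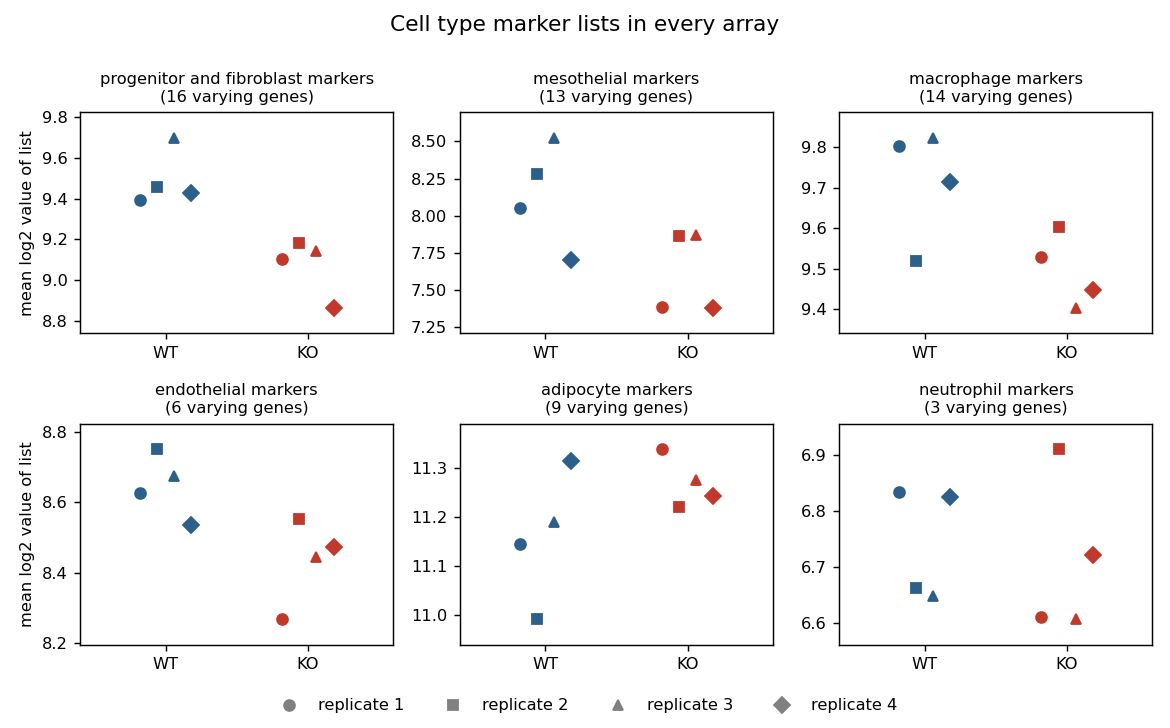
Mean log2 value of the varying genes of 6 cell type marker lists in each WT and LPA4-KO (KO) array, with 1 marker shape per replicate number. The progenitor and fibroblast list is apart between the groups (8.86 to 9.18 against 9.39 to 9.70), and the other 5 lists overlap.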

How the data were processed

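The authors deposited 1 log2 value per probe set and array for 8 arrays. The submitters' processing notes name R 2.14.0; how background, normalization and probe summary were handled is not given in the sources used here. That the scale is log2 was read from the range (5.27 to 14.07), so folds rest on it. Labelling began with 100 ng RNA, per the labels' protocols. The number of arrays limits the precision.

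Of 45101 probe sets, 34945 had 1 gene symbol in the platform annotation, controls left out. All 42 members matched RefSeq by Entrez number. limma 3.58.1 in R 4.3.3 (lmFit, eBayes with trend) compared the labelled groups without filter or block. A call was a Benjamini-Hochberg adjusted p under 0.05, taken over all genes or over varying genes. Every adjusted p in the text is limma's. The fitting steps were run on simulated data with independent noise for each gene and array. Varying genes were taken there from the real values, so the choice of varying genes was not tested.

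Members, lists and alternatives (scaling, variance model, array weights, replicate block, filters, probe set choice, left-out arrays) were chosen with earlier results of these data known. Values in every array are given for called members, the 8 largest differences and the TIMPs. Of the other lists called genes, the smallest p-values and the highest means were eligible to be named. Vcan, Tagln, Myh11, Myl9 and Mylk were chosen after their values were seen.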

Additional observations from a re-analysis of the deposited data

Results flagged for a closer look

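Among 64 groups of 4 arrays (32 varying probe sets in 2 genotypes), 4 held an array whose gap to its nearest neighbour took nearly the whole range of the group, and chance flags about 1 in 20 groups. For Adamts5, LPA4-KO replicate 2 stood at 9.49 at 1422561_at with the other LPA4-KO arrays between 9.09 and 9.11, and at 9.38 at 1456404_at with the others between 8.84 and 8.93. For Mmp12, WT replicate 3 stood at 7.52 with the other WT arrays between 6.91 and 6.92. For Mmp14, LPA4-KO replicate 1 stood at 7.70 with the others between 8.29 and 8.33.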

How the results depend on the processing

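The number of calls changed with the setting. By gene 239 became 9436 after quantile normalization (8799 higher, 637 lower), 361 with array weights, 495 for genes above the median level, 859 in varying genes, 878 in varying genes quantile normalized, 880 in varying genes median centred, and 9 to 88 with 1 array left out. Added after seeing the data, varying genes gave 1181 with array weights, 865 without a trend, 842 with robust variances and 405 to 847 with 1 array left out. Member genes called rose from 0 to 19 when all genes were quantile normalized (16 higher, 3 lower). That setting called 9436 of the 18193 genes. Of the 19, only Timp2, Adamts5, Mmp19 and Adamts6 were varying, and the others were nearly constant, which is no measurement here. Member genes called were 1 (Mmp19) with array weights. They were 3 in varying genes, also when quantile normalized, median centred, without a trend or robust. They went to 4 in varying genes with array weights (Mmp23 added), and ran from 0 to 3 with 1 array left out. By probe set 326 became 19712 after quantile normalization, 1259 in varying probe sets and 10 to 125 with 1 array left out. Member probe sets called went from 1 to 41 after quantile normalization, 0 after median centring, 8 in varying probe sets and 0 with any 1 array left out. The median difference over all genes was 4.0e-05 log2 without scaling, 0.0053 after quantile normalization and 0.0044 after median centring. The nearly constant member genes had a median range of 0.00064 log2 over the arrays as deposited. The cause of the changes in calls was not tested.

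With the replicate block, 0 genes, 0 member genes, 3 probe sets and 0 member probe sets were called over everything. The Lpar4 difference of -0.71 then missed the threshold (adjusted p = 0.085). Varying genes with the block gave 747 calls and 3 members (Timp2, Adamts5, Mmp14). With group means taken out, same-numbered arrays correlated at 0.018, 0.078, 0.24 and -0.18 over the varying genes. LPA4-KO replicates 2 and 3 matched the WT array of the same number best, and replicates 1 and 4 matched another. With 4 centred arrays a group, these values cannot show whether same-numbered arrays share more than a number.

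Of the differences of the 18 varying members, those of Timp4, Adamts4, Timp1 and Timp3 turned sign. Timp4 went from 0.0037 to -0.0736 with array weights (-0.13 in varying genes), -0.0691 with the mean of its probe sets, -0.14 at the probe set with the largest range and -0.13 to 0.0890 with 1 array left out. Adamts4 went from -0.05 to 0.0411 in varying genes quantile normalized, 0.0475 there with array weights, and -0.18 to 0.12 with 1 array left out. Timp1 ran from -0.0090 to 0.13 and Timp3 from -0.0032 to 0.28 with 1 array left out. The other 14 kept their sign in every setting run. Limits of 0.05 and 0.2 left the 18 varying members as they were.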
